A study of Homo sapiens with 60 samples.

Results

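The 37 genes described here encode proteins that carry a cell from late S phase through G2 and mitosis to cytokinesis. They were chosen by symbol and sort into 9 roles: 2 general markers of dividing cells (MKI67, TOP2A), 7 genes of mitotic entry (CCNA2, CCNB1, CCNB2, CDK1, CDC25B, CDC25C, FOXM1), 4 further mitotic kinases (PLK1, AURKA, AURKB, NEK2), 5 genes of the spindle checkpoint (BUB1, BUB1B, BUB3, MAD2L1, TTK), 3 of mitotic exit (CDC20, UBE2C, PTTG1), 3 of the centromere and kinetochore (CENPA, CENPE, CENPF), 5 kinesin motors (KIF11, KIF20A, KIF23, KIF2C, KIF4A), 5 genes of spindle assembly (TPX2, NUSAP1, PRC1, HMMR, CKAP2) and 3 of chromosome passage and cytokinesis (BIRC5, ECT2, ANLN). A gene also had to reach a mean of at least 1 CPM (counts scaled to library size) in some group, which all 37 did. All 37 entered the tests, among 17049 genes tested and 60675 gene identifiers in the deposited table.

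The cells were HT29, an established line from a human colorectal adenocarcinoma, and each library holds RNA of cultures kept for 24 h with an extract made in hot water or with DMSO, the vehicle. The extracts were 2 single herbs, Menthae Herba (mint leaf) and Saposhnikoviae Radix, and 5 formulas, of which Soyo-san, Okbyeongpung-san, Saengmaek-san and Guibi-tang were replicated and Soshiho-tang was not. Every extract was used at 500 (high), 100 (medium) and 20 µg/mL (low). Vehicle and 6 extracts had 3 libraries per group, which gave 57 libraries in 19 groups, and Soshiho-tang had 1 library per dose and entered no test. The vehicle is given as 0.1% DMSO in the sample labels and as 2% in the series' design text, and whether extract-treated cells also received DMSO is not in the labels. Nothing in the labels says that the 3 libraries of a group came from separate cultures, so the p-values reflect only how these libraries scatter, and that scatter may be technical.

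As background, CDK1 bound to cyclin A or B drives entry into mitosis once CDC25 phosphatases remove its inhibitory phosphates. The spindle checkpoint then holds back the anaphase-promoting complex until every kinetochore is attached, and CDC20 and UBE2C act with that complex to start anaphase and end mitosis. Most of these genes are activated in G2 by FOXM1, by B-MYB with the MuvB complex and by NF-Y, which binds CCAAT boxes, and are repressed in quiescence and G1 by the DREAM complex at promoter elements called CHR. Their transcripts are therefore read as a measure of how many cells in a culture are in G2 or mitosis, although in bulk RNA fewer such cells and less RNA per cell cannot be told apart.

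The shared promoter letters are shown for 8 members whose values recur below: the regulators of entry and exit CCNB1, CCNB2, PLK1 and CDC20, the spindle genes HMMR and CKAP2, which were among the members that differed most with library numbering, the motor KIF4A and MAD2L1. RefSeq promoter windows on GRCh38.p14, each of 300 bases (250 before to 50 after a transcription start), were found for 30 of the 37 members. Both strands were searched for TTTGAA or TTCGAA, the core letters of the CHR element, and for CCAAT, the letters bound by NF-Y. At least 1 of the CHR forms stood in 21 of the 30 members (70%) and in 19.5% of all 27305 genes with a window. At least 1 CCAAT stood in 25 members (83.3%) against 39.7% of all genes, at least 2 in 16 members (53.3%) against 12.9%, and a CHR form together with CCAAT in 19 members (63.3%) against 7.85%. A match is a description of these letters and no evidence of a bound site. Each line below holds the 120 bases that end just before the start, 5′ to 3′ on the gene's strand, with the letters of a CHR form and of CCAAT, or of its reverse complement ATTGG, in capitals. The stretches are chr5:69167030-69167149, chr15:59105026-59105145, chr16:23678769-23678888, chr1:43358861-43358980, chr5:163460512-163460631, chrX:70289984-70290103 and chr13:52455868-52455987 on the plus strand and chr4:120066849-120066968 on the minus strand.
CCNB1: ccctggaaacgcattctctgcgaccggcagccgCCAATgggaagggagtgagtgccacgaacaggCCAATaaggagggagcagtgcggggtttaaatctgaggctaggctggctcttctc
CCNB2: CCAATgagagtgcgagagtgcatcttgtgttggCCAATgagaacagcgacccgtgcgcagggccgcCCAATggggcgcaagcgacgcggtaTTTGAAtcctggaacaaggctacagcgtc
PLK1: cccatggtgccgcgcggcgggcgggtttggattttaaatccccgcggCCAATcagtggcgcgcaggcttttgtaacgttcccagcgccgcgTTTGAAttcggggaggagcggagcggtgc
CDC20: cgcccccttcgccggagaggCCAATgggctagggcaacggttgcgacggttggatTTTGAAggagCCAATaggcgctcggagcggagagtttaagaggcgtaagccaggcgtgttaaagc
HMMR: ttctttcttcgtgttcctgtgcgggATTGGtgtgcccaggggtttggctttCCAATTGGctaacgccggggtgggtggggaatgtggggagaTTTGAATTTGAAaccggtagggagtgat
KIF4A: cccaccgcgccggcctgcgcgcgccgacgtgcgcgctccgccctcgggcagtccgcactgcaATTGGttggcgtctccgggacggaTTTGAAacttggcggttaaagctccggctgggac
CKAP2: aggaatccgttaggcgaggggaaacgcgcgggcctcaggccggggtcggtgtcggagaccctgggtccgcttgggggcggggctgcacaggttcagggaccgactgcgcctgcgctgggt
MAD2L1: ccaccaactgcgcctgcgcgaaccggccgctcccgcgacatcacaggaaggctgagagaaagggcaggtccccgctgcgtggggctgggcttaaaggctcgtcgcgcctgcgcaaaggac
CCNB1, which encodes cyclin B1, has a pair of CCAAT boxes and none of the CHR letters here. CCNB2, the other mitotic B-type cyclin, has 3 CCAAT boxes ahead of TTTGAA. In HMMR, a spindle-assembly gene, CCAAT and ATTGG share letters at 1 place and were counted separately. CKAP2, a spindle gene, has none of the letters in its whole window, and MAD2L1 has a CHR form and CCAAT only outside the stretch shown. AURKA, BUB3, FOXM1, TPX2, TTK, UBE2C and BIRC5 had no entry.

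Libraries held between 19495005 and 41934333 counts, with a median of 29181790. No member had fewer than 325 counts in any library. Mitochondrial transcripts took 9.74% to 13.9% of counts, with 12.8% to 13.5% in vehicle, near the upper end. Of 10 colon epithelial markers, 9 had a median above 1 CPM (CDX1 was at 0.830 CPM), and their summed level was 10634 to 11273 CPM in vehicle and 10220 to 14188 CPM over all libraries. The fibroblast list reached 1.40 to 3.29 CPM and the endothelial list 0.863 to 2.00 CPM. Of 6 immune markers, LYZ stood at a median of 1491 CPM while PTPRC and CD3E were near 0.

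The names of the extract libraries carry a running number, and the libraries differed along it. Vehicle names begin with B1, outside that series, and vehicle was placed first here, a position the labels do not give. The first principal component of genes outside all listed sets held 12.8% of the variance and split the numbering in 1 place: 31 earlier libraries had scores of at most -8.18 and 29 later libraries of at least 2.89. The split was made from these same data and is not a batch that the labels name. Only their scores on this component put the vehicle libraries in the earlier part. Vehicle, Menthae Herba and Saposhnikoviae Radix lay wholly in the earlier and Soyo-san, Okbyeongpung-san and Soshiho-tang wholly in the later part. Saengmaek-san had 1 later library at each dose, and Guibi-tang had 1, 2 and 2. Median totals were 34660096 counts in the earlier and 24868118 in the later part. For Soyo-san and Okbyeongpung-san the extract and the numbering cannot be told apart by any direct comparison with vehicle. A term for the numbering could be fitted only through the 6 Saengmaek-san and Guibi-tang groups, whose libraries fell in both parts.

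**Figure D1:**
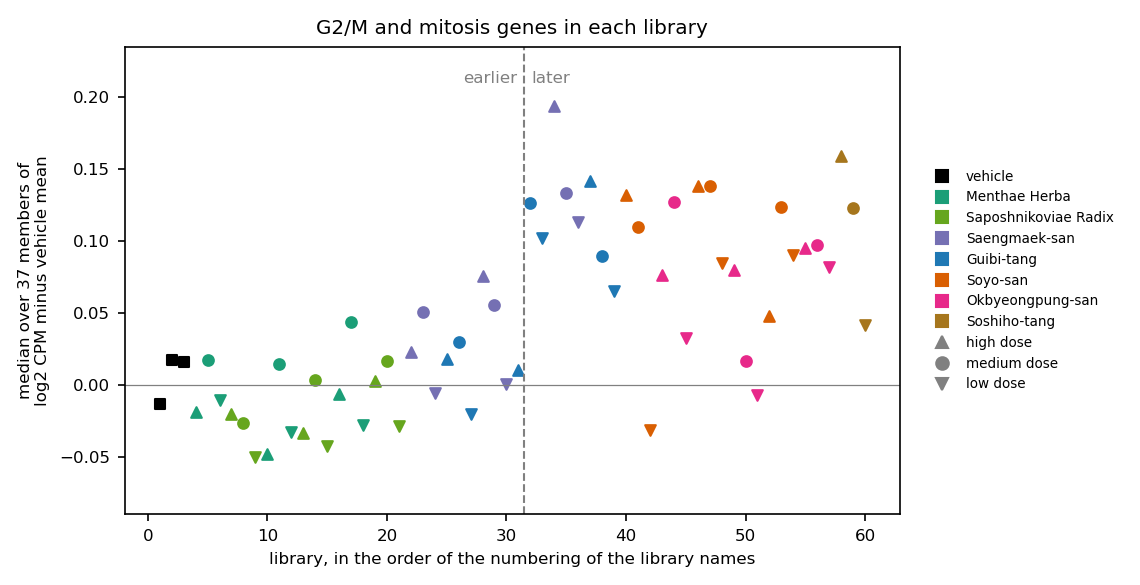
Median over the 37 members of log2 CPM minus the vehicle mean (vertical axis) for each of the 60 libraries in the order of their numbering (horizontal axis). Vehicle is placed first. Color marks the extract, shape the dose and a dashed line the split. Earlier libraries sit between -0.05 and 0.08 and later ones between -0.03 and 0.19.

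In vehicle, the members' levels are on the CPM scale, which does not correct for gene length, so they are compared across groups and not between genes. MKI67, the nuclear antigen of cycling cells, stood at 962, 1132 and 1081 CPM in the 3 vehicle libraries, and its group means ran from 959 ± 54.0 CPM (SD, n = 3) in Menthae Herba low to 1209 ± 23.0 CPM in Okbyeongpung-san medium. TOP2A, the topoisomerase that untangles replicated chromosomes, was at 450, 518 and 502 CPM, and its group means stayed between 490 ± 7.63 and 546 ± 32.8 CPM. CCNB1 was at 163, 165 and 167 CPM, with group means between 162 ± 7.23 and 180 ± 3.79 CPM. These ranges are narrow: over all 60 libraries the ratio of a member's highest to its lowest library ran from 1.16 (BUB3) to 2.01 (CENPE), with a median of 1.32. Vehicle replicate 1 was the lowest of the 3 vehicle libraries for several members. KIF11, the kinesin that pushes spindle poles apart, was at 85.9 CPM there against 115 and 111 CPM. CKAP2 was at 130 against 153 and 148 CPM, ECT2 at 228 against 263 and 261 CPM, and ANLN at 169 against 195 and 192 CPM. The within-group SD on the log2 scale had a median of 0.07 over the members, from 0.04 for BUB3 to 0.16 for CENPF and 0.25 for CENPE, so differences of the kinetochore genes CENPE and CENPF were the least precise.

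For the other readouts the vehicle libraries and the range of the 18 treated group means were as follows. CDK1, the mitotic kinase, was at 76.4, 80.6 and 83.9 CPM, with means of 75.6 to 92.1 CPM. CCNA2, cyclin A2, was at 127, 125 and 121 CPM, with means of 121 to 147 CPM. FOXM1, the transcription factor of the G2/M programme, was at 224, 223 and 229 CPM, with means of 207 to 231 CPM. PLK1, polo-like kinase 1, was at 188, 180 and 190 CPM, with means of 167 to 189 CPM. For CDK1, CCNA2 and FOXM1 the highest treated mean lay above all vehicle libraries and the lowest below all of them. For PLK1 the lowest lay below all of them and the highest did not lie above. AURKA, the spindle-pole kinase, was at 160, 161 and 159 CPM, with means of 148 to 169 CPM. AURKB, the kinase of the chromosomal passenger complex, was at 46.4, 48.4 and 48.0 CPM, with means of 42.9 to 50.6 CPM. BUB1, a checkpoint kinase, was at 93.9, 104 and 99.5 CPM, with means of 94.9 to 107 CPM. The vehicle libraries of AURKA and AURKB lay inside the range of the treated means, and 1 of BUB1 lay below it. CDC20, the activator of the anaphase-promoting complex, was at 164, 159 and 152 CPM, with means of 149 to 169 CPM. KIF20A, a motor of the central spindle, was at 71.4, 70.1 and 68.2 CPM, with means of 61.1 to 76.3 CPM. CENPF was at 259, 292 and 275 CPM, with means of 243 to 341 CPM. For CENPF the highest mean was that of Okbyeongpung-san low and the lowest that of Menthae Herba high.

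Each extract and dose was compared with vehicle by edgeR's quasi-likelihood test, with p-values adjusted over all 17049 genes and a threshold of 0.05. The 18 comparisons share the 3 vehicle libraries, so they are not independent of each other. Over them, a member passed the threshold 32 times, in 7 comparisons, and 11 comparisons had none. There were 12 members that rose at least once (BIRC5, BUB3, CCNA2, CDK1, ECT2, KIF23, KIF2C, KIF4A, MAD2L1, NEK2, PRC1, TTK), 2 that fell at least once (CDC25B in 6 comparisons, CENPA in 3), and 23 that never passed, among them MKI67, TOP2A, CCNB1, PLK1, AURKA, AURKB, CDC20 and FOXM1. The changes that passed without each of the 6 libraries in turn were those of MAD2L1 with Menthae Herba high, BIRC5 with Soyo-san high and medium and CENPA with Okbyeongpung-san low, with highest adjusted p-values of 0.0160, 0.0203, 0.0268 and 0.0484 (edgeR). With no filter on low counts 16 of the 32 passed, and BIRC5 with Soyo-san high and medium did not (adjusted p = 0.0534 and 0.0524). Every change that passed lay between -0.26 and 0.26 on the log2 scale. In each of the 32 the 3 treated libraries lay all above or all below the 3 of vehicle. Such separation was not particular to them: with Soyo-san medium, where 8 members passed, 23 lay all above and 2 all below vehicle. Its share over all genes was not counted. The 95% interval of the log2 change was inside ±0.5 for 35 to 37 of the 37 members in every comparison, with CENPE and CENPF the exceptions.

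**Figure D2:**
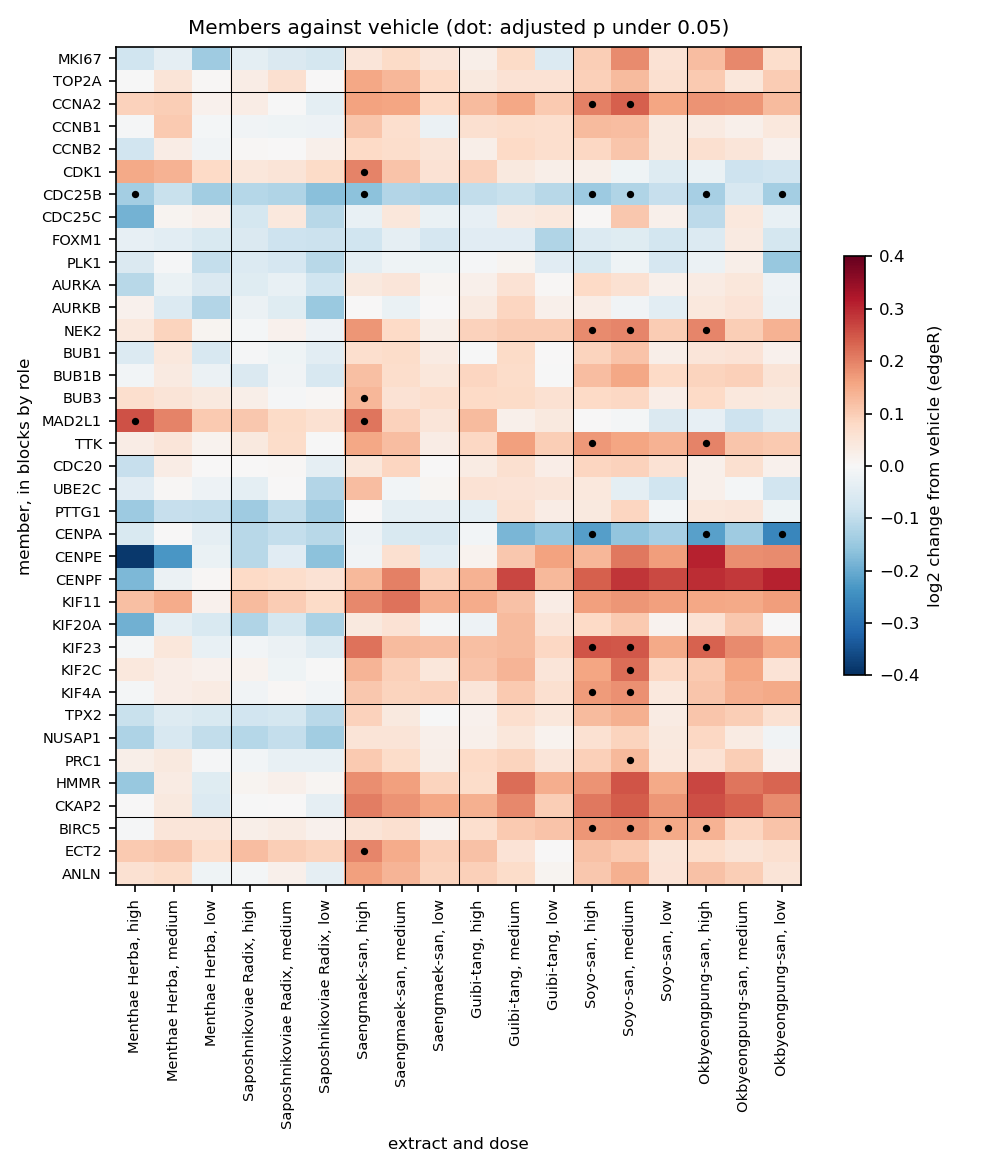
Log2 change from vehicle of the 37 members (rows, in blocks by role) under 18 extract and dose groups (columns), as edgeR fitted it, with a dot where the adjusted p was under 0.05. The 32 dots fall in 7 columns, and CDC25B (6 dots) and CENPA (3 dots) are the rows marked as lower.

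With Menthae Herba at the high dose 1 member rose and 1 fell, where 4.59% of all genes tested rose and 3.98% fell. MAD2L1, the checkpoint protein that sequesters CDC20, was at 93.1, 97.4 and 92.3 CPM against 78.4, 78.5 and 79.9 CPM in vehicle. That is a log2 change of 0.26 ± 0.05 (SE, adjusted p = 0.00102, edgeR), with no overlap between the groups. CDC25B, a phosphatase that activates CDK1, was at 151, 147 and 150 CPM against 171, 163 and 158 CPM, a change of -0.13 ± 0.04 (adjusted p = 0.0257, edgeR). Without vehicle replicate 1, or without replicate 2 of the treated group, 1 member passed in place of 2. The median change over the 37 members was -0.01. The member farthest from 0 was CENPE, the kinesin of the kinetochore, at 56.3, 43.2 and 40.9 CPM against 67.5, 59.1 and 57.1 CPM, a change of -0.39 ± 0.20 that missed the threshold (adjusted p = 0.258, edgeR).

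No member passed at the medium or the low dose of Menthae Herba, where 0.739% and 0.0587% of all genes rose or fell. At an unadjusted p under 0.05, edgeR gave 6 members at the medium and 2 at the low dose. DESeq2's test, counted here and in what follows at an adjusted p under 0.05, gave 1 at each. Shares of all genes were not counted at an unadjusted p or with DESeq2's test. Member counts on these 2 measures, here and below, therefore have no background beside them. The member medians were 0.03 and -0.02. With Saposhnikoviae Radix no member passed at the high, medium or low dose, where 0.499%, 0.0293% and 0.17% of all genes rose or fell. The counts at an unadjusted p under 0.05 were 3, 1 and 6, and DESeq2's test gave 0, 0 and 1. The medians were -0.01, -0.005 and -0.04. At its high dose the members with the smallest p were CDC25B at -0.12 ± 0.04 (adjusted p = 0.214, edgeR), ECT2 at 0.12 ± 0.05 (adjusted p = 0.319) and PTTG1 at -0.14 ± 0.07 (adjusted p = 0.408).

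With Saengmaek-san at the high dose 4 members rose and 1 fell, where 2.39% of all genes rose and 1.89% fell. MAD2L1 was at 91.9, 98.6 and 84.0 CPM, a change of 0.22 ± 0.05 (adjusted p = 0.0150, edgeR). CDK1 was at 89.4, 97.0 and 90.0 CPM against 76.4, 80.6 and 83.9 CPM, a change of 0.20 ± 0.05 (adjusted p = 0.0279). The libraries did not overlap for either gene. ECT2, the exchange factor that sets up the cleavage furrow, was at 272, 308 and 281 CPM against 228, 263 and 261 CPM, a change of 0.20 ± 0.05 (adjusted p = 0.0178, edgeR). BUB3, a checkpoint adaptor, was at 163, 174 and 174 CPM against 158, 153 and 154 CPM, a change of 0.13 ± 0.04 (adjusted p = 0.0344). CDC25B was at 148, 144 and 147 CPM, a change of -0.16 ± 0.04 (adjusted p = 0.0135). The count of 5 rested on single libraries: it was 0 without vehicle replicate 1, 3 without vehicle replicate 2, 0 without Saengmaek-san high replicate 2 and 10 without its replicate 1. In a fit of only this group and vehicle none of the 5 passed, with adjusted p-values from 0.184 (MAD2L1) to 0.293 (BUB3). At the medium and low dose no member passed, where 0.416% and 0.0938% of all genes did. The counts at an unadjusted p under 0.05 were 9 and 2, and DESeq2's test gave 0 at both. The member medians were 0.11, 0.07 and 0.03 from the high to the low dose. With a term for the library numbering they were 0.059, 0.043 and -0.0068, the last with its sign turned.

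With Guibi-tang no member passed at any dose by edgeR, where 2.26%, 1.07% and 0.85% of all genes rose or fell at the high, medium and low dose. At an unadjusted p under 0.05 there were 5, 11 and 4 members, and DESeq2's test gave 0 at all 3 doses. Without replicate 1 of the low-dose group 1 member passed as lower there. At the high dose the smallest p-values were those of CDC25B at -0.10 ± 0.04 (adjusted p = 0.192, edgeR), MAD2L1 at 0.13 ± 0.05 (adjusted p = 0.220) and ECT2 at 0.12 ± 0.05 (adjusted p = 0.223). Each had its 3 libraries beyond the vehicle range. The member medians were 0.06, 0.08 and 0.05. With a term for the library numbering they were 0.015, 0.014 and -0.034, so that of the low dose turned sign.

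With Soyo-san 6 members rose and 2 fell at the high dose, where 8.03% of all genes rose and 6.43% fell. Its libraries are all later-numbered, while those of vehicle fell in the earlier part by their component scores. BIRC5, which encodes survivin of the chromosomal passenger complex, was at 98.5, 98.7 and 97.2 CPM against 88.3, 84.0 and 88.3 CPM, a change of 0.18 ± 0.04 (adjusted p = 0.00188, edgeR). KIF23, the kinesin of the centralspindlin complex, was at 137, 146 and 131 CPM against 107, 123 and 117 CPM, a change of 0.25 ± 0.07 (adjusted p = 0.0159). CCNA2 was at 143, 154 and 131 CPM, a change of 0.20 ± 0.07 (adjusted p = 0.0327). Neither gene's libraries overlapped those of vehicle, although both genes were apart by less than the range within either group. KIF4A, a chromosome-bound kinesin with a near-identical retrocopy, KIF4B, that shares its reads, was at 0.17 ± 0.05 (adjusted p = 0.0192). NEK2, a centrosomal kinase, was at 0.19 ± 0.06 (adjusted p = 0.0330) and TTK, the checkpoint kinase also called MPS1, at 0.17 ± 0.05 (adjusted p = 0.0241). Among those that fell, CDC25B was at 150, 146 and 147 CPM (-0.15 ± 0.04, adjusted p = 0.0109). CENPA, the histone H3 variant of centromeres, was at 15.4, 17.6 and 17.4 CPM against 19.7, 18.9 and 20.1 CPM (-0.22 ± 0.06, adjusted p = 0.0140). The count of 8 was 2 without vehicle replicate 1, 4 without vehicle replicate 3, 2 without Soyo-san high replicate 1 and 3 without its replicate 2.

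With Soyo-san at the medium dose 7 members rose and 1 fell, where 5.57% of all genes rose and 4.29% fell. BIRC5 was at 97.3, 99.7 and 98.3 CPM (0.18 ± 0.04, adjusted p = 0.00293, edgeR) and CCNA2 at 147, 151 and 142 CPM (0.24 ± 0.07, adjusted p = 0.0153). KIF2C, the kinesin that depolymerises microtubule ends, was at 89.7, 90.4 and 91.5 CPM against 79.2, 78.4 and 74.9 CPM (0.22 ± 0.06, adjusted p = 0.0141). The 3 treated libraries of each of these genes lay above every vehicle library. KIF23 (0.25), NEK2 (0.20), KIF4A (0.18) and PRC1 (0.13), the last a bundler of midzone microtubules, rose too, and CDC25B fell by 0.12 (adjusted p = 0.0482). The count of 8 was 3 without vehicle replicate 1, 2 without vehicle replicate 3, 3 without Soyo-san medium replicate 1 and 1 without its replicate 2. At the low dose BIRC5 alone passed, at 101, 94.7 and 93.5 CPM (0.15 ± 0.04, adjusted p = 0.0213), where 2.04% of all genes rose and 1.89% fell. It did not pass there without vehicle replicate 2 or without replicate 1 or 2 of the treated group. The member medians were 0.10, 0.12 and 0.04.

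With Okbyeongpung-san, also later-numbered throughout, 4 members rose and 2 fell at the high dose, where 4.36% of all genes rose and 3.03% fell. TTK was at 50.4, 49.7 and 50.7 CPM against 42.2, 44.0 and 45.2 CPM, a change of 0.20 ± 0.05 (adjusted p = 0.0183, edgeR). KIF23 was at 140, 137 and 132 CPM, a change of 0.24 ± 0.07 (adjusted p = 0.0378). BIRC5 (0.14, adjusted p = 0.0232) and NEK2 (0.19, adjusted p = 0.0477) rose, and CDC25B (-0.13, adjusted p = 0.0356) and CENPA (-0.22, adjusted p = 0.0294) fell. The count of 6 was 0 without vehicle replicate 1, 3 without vehicle replicate 3, and 2, 3 and 1 without replicates 1, 2 and 3 of the treated group. At the medium dose no member passed by edgeR, where 3.75% of all genes rose or fell. 13 members had an unadjusted p under 0.05, DESeq2's test gave 0, and 4 passed without replicate 2 of that group. At the low dose none rose and 2 fell, where 4.74% of all genes rose and 4.05% fell. These were CDC25B, at 148, 148 and 151 CPM (-0.14 ± 0.04, adjusted p = 0.0239), and CENPA, at 15.8, 17.3 and 15.9 CPM (-0.26 ± 0.06, adjusted p = 0.00712). 1 of the 2 passed without vehicle replicate 1 or without replicate 1 of the low-dose group. Over the 6 fits with 1 library left out CENPA passed in 6 and CDC25B in 3. The member medians were 0.08, 0.06 and 0.04, and the median over all genes was within 0.01 of 0 in each of the 18 comparisons.

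**Figure D3:**
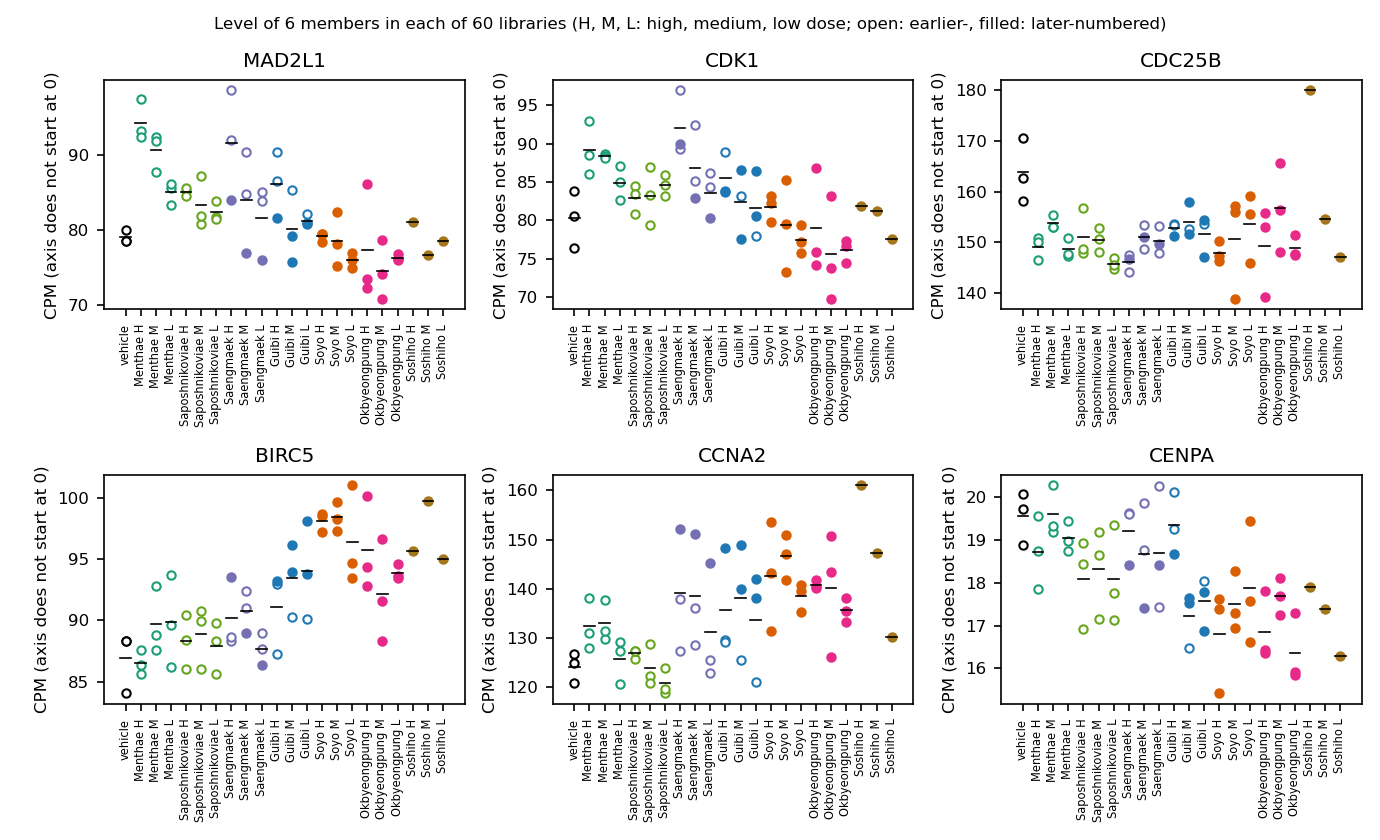
CPM of 6 members in each of the 60 libraries by group (points; dashes mark group means; axes do not start at 0), with open points for earlier-numbered and filled points for later-numbered libraries. MAD2L1 is highest in Menthae Herba high (94.3 CPM mean) and Saengmaek-san high (91.5 CPM), and BIRC5 has its highest mean of the replicated groups in Soyo-san medium (98.4 CPM), with the 1 library of Soshiho-tang medium at 99.8 CPM.

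Among the genes of mitotic entry, CDC25B (ENSG00000101224; GRCh38 chromosome 20, 3786772 to 3806121, plus strand, protein coding) was the member that passed most often. Its fitted change was below 0 in all 18 comparisons, from -0.17 with Saposhnikoviae Radix low to -0.06 with Okbyeongpung-san medium, and all share the same vehicle libraries at 171, 163 and 158 CPM. The treated group means lay between 146 ± 1.12 and 157 ± 8.80 CPM, all below the lowest vehicle library. CDC25C, the related phosphatase, passed nowhere. Its lowest mean was 15.7 ± 1.01 CPM with Menthae Herba high against 17.8 ± 1.31 CPM in vehicle (adjusted p = 0.0686, edgeR). CDK1 (chromosome 10, 60778331 to 60794852, plus strand) passed in 1 comparison and CCNA2 (chromosome 4, 121816444 to 121823933, minus strand) in 2. CCNB1, CCNB2 and FOXM1 passed in none, with changes from -0.02 to 0.13, -0.08 to 0.11 and -0.12 to 0.04.

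In the spindle checkpoint, MAD2L1 (ENSG00000164109; chromosome 4, 120055608 to 120067074, minus strand, protein coding) had group means of 94.3 ± 2.73, 90.6 ± 2.53 and 85.0 ± 1.48 CPM at the high, medium and low dose of Menthae Herba. With Saengmaek-san they were 91.5 ± 7.30, 84.0 ± 6.76 and 81.6 ± 4.91 CPM, with Guibi-tang 86.1 ± 4.37, 80.1 ± 4.88 and 81.2 ± 0.737 CPM, and with Saposhnikoviae Radix 85.0 ± 0.510, 83.2 ± 3.42 and 82.3 ± 1.34 CPM. Soyo-san and Okbyeongpung-san gave 74.5 to 79.1 CPM, against 79.0 ± 0.849 CPM in vehicle. In the order of levels, the libraries of Menthae Herba high and Saengmaek-san high overlapped, as did those of Saengmaek-san high, Menthae Herba medium and Guibi-tang high, and those of Menthae Herba high lay above those of Guibi-tang high. BUB1B, the checkpoint kinase-like protein BUBR1, passed in no comparison with vehicle and was at most 0.15 (Soyo-san medium, adjusted p = 0.0657, edgeR), and BUB1 at most 0.11 (adjusted p = 0.148).

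The genes of mitotic exit passed nowhere. CDC20 ranged from -0.09 to 0.09, UBE2C, the ubiquitin-conjugating enzyme of the anaphase-promoting complex, from -0.12 to 0.12, and PTTG1, securin, from -0.15 to 0.09 on the log2 scale. PTTG1 has a close relative, PTTG2, with which it can share reads. At the kinetochore, CENPA (chromosome 2, 26764289 to 26801067, plus strand) had its lowest mean with Okbyeongpung-san low (16.3 ± 0.810 CPM) and its highest with Menthae Herba medium (19.6 ± 0.599 CPM). CENPF, a large protein of the outer kinetochore, was at 0.31 ± 0.13 with Okbyeongpung-san low (adjusted p = 0.126, edgeR), with its 3 libraries at 346, 329 and 349 CPM, all above vehicle.

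Of the motors, KIF23 (chromosome 15, 69414246 to 69448427, plus strand) passed in 3 comparisons, KIF4A in 2 and KIF2C in 1. KIF11 was above vehicle in all 18 fits, from 0.02 to 0.22, and passed in none (smallest adjusted p = 0.0823, edgeR), against vehicle libraries at 85.9, 115 and 111 CPM. KIF20A ranged from -0.19 with Menthae Herba high (adjusted p = 0.0621) to 0.13 with Guibi-tang medium. Of the spindle-assembly genes PRC1 alone passed. CKAP2, which stabilises spindle microtubules, and HMMR, which positions them, reached 0.26 (adjusted p = 0.0601) and 0.27 (adjusted p = 0.0618) with Okbyeongpung-san high. TPX2, the activator of AURKA, and NUSAP1, which links microtubules to chromosomes, were at most 0.14 and 0.09. In cytokinesis, BIRC5 (ENSG00000089685; chromosome 17, 78214186 to 78225636, plus strand, protein coding) passed in 4 comparisons, all of Soyo-san or Okbyeongpung-san. ANLN, the scaffold of the contractile ring, reached 0.16 with Saengmaek-san high (adjusted p = 0.0757).

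Most members were higher in later libraries. With group held fixed, 25 of the 37 were higher and 1 was lower (adjusted p under the threshold, edgeR), where 15.9% of all genes were higher and 13.7% lower. The member median was 0.10 and that of all genes 0.001. CKAP2 (chromosome 13, 52455429 to 52476628, plus strand) differed by 0.27 ± 0.03 (adjusted p = 8.68e-10). In Saengmaek-san high it was at 146 and 158 CPM in the earlier libraries and 195 CPM in the later one, and in Guibi-tang high at 147 and 151 CPM against 179 CPM. In both groups the later library stood above all vehicle libraries, whose highest was 153 CPM. HMMR differed by 0.27 ± 0.04 (adjusted p = 2.58e-08) and was at 57.7 and 57.4 CPM against 73.7 CPM in Guibi-tang high. MKI67 differed by 0.19 ± 0.05 (adjusted p = 0.00150) and was at 1001 and 1030 CPM against 1252 CPM in Saengmaek-san high. CCNA2 differed by 0.20 ± 0.03 (adjusted p = 2.76e-08), at 127 and 138 CPM against 152 CPM in that group. MAD2L1 was the member that was lower (-0.13 ± 0.03, adjusted p = 0.00011), at 91.9 and 98.6 CPM against 84.0 CPM in Saengmaek-san high and at 86.4 and 90.3 CPM against 81.6 CPM in Guibi-tang high.

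**Figure D4:**
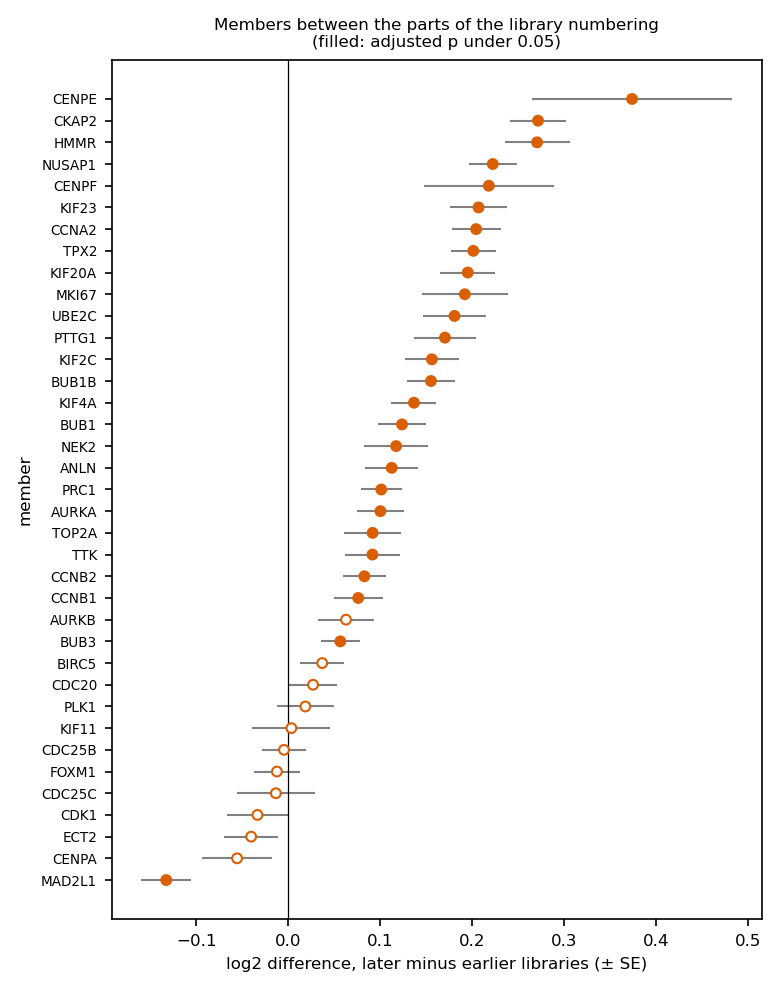
Log2 difference of later minus earlier libraries with group held fixed (points; lines are ± 1 SE) for the 37 members, filled where the adjusted p was under 0.05. CENPE (0.37), CKAP2 (0.27) and HMMR (0.27) are farthest to the right and MAD2L1 (-0.13) is the filled point on the left.

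By role, the higher members were 5 of 5 spindle-assembly genes, 4 of 5 motors, 4 of 5 checkpoint genes, 2 of 2 markers, 2 of 3 exit genes, 2 of 3 kinetochore genes, 2 of 4 kinases, 3 of 7 entry genes and 1 of 3 cytokinesis genes. The 11 that did not pass were CDK1, CDC25B, CDC25C, FOXM1, PLK1, AURKB, CDC20, CENPA, KIF11, BIRC5 and ECT2. Of the 19 members whose promoter windows hold a CHR form and CCAAT, 10 were higher and 1 lower, with a median of 0.08. Of the 11 with a window that does not hold both, 10 were higher, with a median of 0.16, CKAP2 and CENPE among them. Within each of the 6 groups that span the split, the later libraries lay above all earlier ones for 24 to 28 of the 37 members and below all for 2 to 6. In each of these groups 1 of the parts holds a single library. The same count over all genes was not made, so these numbers have no background beside them. The summed level of the 37 members was 5735 to 6286 CPM (median 5927) over earlier and 5880 to 7050 CPM (median 6442) over later libraries. In Saengmaek-san high it was 5962 and 6286 CPM in the earlier and 6870 CPM in the later library. In Guibi-tang high it was 5936 and 5957 CPM against 6679 CPM.

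With the numbering in the fit, the comparisons with vehicle gave 23 passing members in place of 32, of which 9 were shared with the fit without it and 14 were not. Of the 25 that had passed with Soyo-san or Okbyeongpung-san, 2 stayed past the threshold, both with Soyo-san high: CDC25B (-0.14 ± 0.05, adjusted p = 0.0484, edgeR) and BIRC5 (0.14 ± 0.05, adjusted p = 0.0459). Of the 8 members that rose with those extracts, 7 were also among the 25 that were higher in later libraries, BIRC5 being the other. CCNA2 with Soyo-san high moved from 0.20 to -0.0038, KIF23 from 0.25 to 0.04 and KIF4A from 0.17 to 0.03. With Soyo-san 1 member rose and 2 fell at the high dose, where in the same fit 3.92% of all genes rose and 3.24% fell. At the medium dose none passed (1.57% and 1.4% of all genes), and at the low dose 3 fell (1.95% and 1.95%). With Okbyeongpung-san none passed at the high dose (1.3% and 1.05% of all genes), 1 fell at the medium (0.991% and 0.968%) and 3 fell at the low dose (2.59% and 2.35%). Members that newly passed there as lower were UBE2C (-0.26), TPX2 (-0.17) and NUSAP1 (-0.18) for Soyo-san low and NUSAP1 (-0.16) for Soyo-san high. With Okbyeongpung-san they were NUSAP1 (-0.19) at the medium dose and UBE2C (-0.26), KIF20A (-0.19) and NUSAP1 (-0.24) at the low dose. None of these genes had passed against vehicle without the term. The size of the term came only from the Saengmaek-san and Guibi-tang groups, and whether it holds for Soyo-san and Okbyeongpung-san was not tested. The member medians became -0.004, 0.03 and -0.06 for Soyo-san and -0.03, -0.02 and -0.06 for Okbyeongpung-san, high to low.

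The changes that had passed with Menthae Herba and Saengmaek-san at the high dose passed with that term too. In that fit 6.39% of all genes rose and 5.2% fell with Menthae Herba high, and 3.67% and 2.72% with Saengmaek-san high. MAD2L1 was at 0.26 ± 0.04 in both (adjusted p = 2.55e-05 and 0.000255, edgeR), and all 5 members that passed with Saengmaek-san high passed again. With Menthae Herba high CDK1 (0.15 ± 0.05, adjusted p = 0.0489) was added as higher and KIF20A (-0.19 ± 0.05, adjusted p = 0.00516) and NUSAP1 (-0.12 ± 0.04, adjusted p = 0.0464) as lower. MAD2L1 passed too with Menthae Herba medium (0.20 ± 0.04, adjusted p = 0.00745) and Guibi-tang high (0.17 ± 0.04, adjusted p = 0.0198), and CDC25B with Saposhnikoviae Radix low (-0.17 ± 0.04, adjusted p = 0.0218). The shares of all genes that rose and fell were 0.886% and 0.874%, 2.12% and 1.5%, and 0.27% and 0.405% in these 3 comparisons. In a fit of the earlier libraries alone, which needs no such term, MAD2L1 was at 0.25 ± 0.04 with Menthae Herba high (adjusted p = 6.7e-06), 0.27 ± 0.04 with Saengmaek-san high (adjusted p = 6.66e-05), 0.15 ± 0.04 with Saengmaek-san medium (adjusted p = 0.0419) and 0.16 ± 0.04 with Guibi-tang high (adjusted p = 0.0176). That fit tested 17927 genes. It gave 2 members higher and 7 lower with Menthae Herba high, where 7.49% of all genes rose and 6.54% fell, the 7 being CDC25B, AURKA, PTTG1, KIF20A, TPX2, NUSAP1 and HMMR, with changes from -0.20 to -0.09. With Saposhnikoviae Radix it gave CDC25B at all 3 doses, and TPX2 and NUSAP1 at the low dose, all lower, where 1.47%, 0.63% and 1.44% of all genes fell at the high, medium and low dose.

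**Figure D5:**
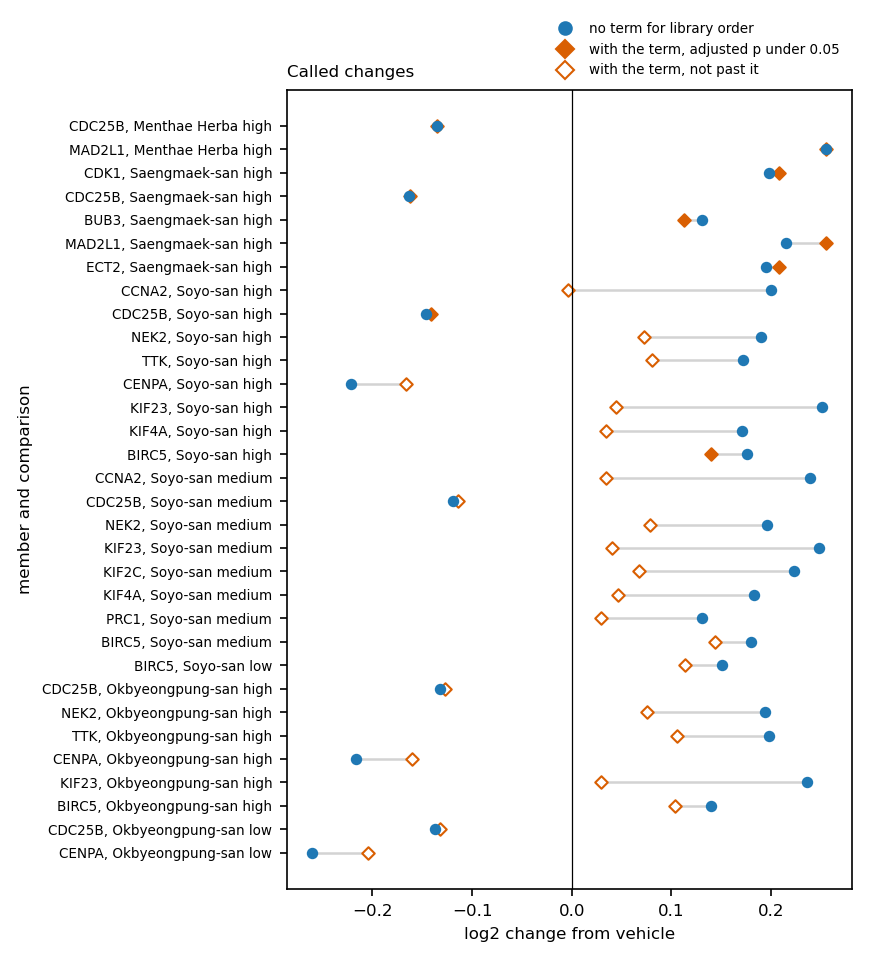
Log2 change from vehicle (horizontal axis) of the 32 member and group pairs that passed in the comparisons with vehicle, without (circles) and with (diamonds, filled where the adjusted p was under 0.05) a term for the library numbering. The 9 filled diamonds are those of Menthae Herba high, Saengmaek-san high and Soyo-san high (CDC25B, BIRC5).

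The high dose was then compared with the low dose of the same extract. No member passed by edgeR in any of the 6 comparisons, in which 2.36% (Menthae Herba), 0.0293% (Saposhnikoviae Radix), 0.0235% (Saengmaek-san), 0.352% (Guibi-tang), 0.129% (Soyo-san) and 0.00587% (Okbyeongpung-san) of all genes rose or fell. The counts at an unadjusted p under 0.05 were 4, 1, 5, 2, 1 and 1, and DESeq2's test gave 0 in each. The closest was CDC25C with Menthae Herba, at -0.21 ± 0.07 (adjusted p = 0.0868, edgeR), followed by MAD2L1 at 0.15 ± 0.05 (adjusted p = 0.149, 95% interval 0.05 to 0.25). With the numbering in the fit, MAD2L1 passed there (0.15 ± 0.04, adjusted p = 0.0342), and 1 member passed as lower without Menthae Herba high replicate 3. For MAD2L1 the other high-minus-low differences were 0.17 ± 0.05 with Saengmaek-san (adjusted p = 0.390), 0.09 ± 0.05 with Guibi-tang (adjusted p = 0.715), 0.05 ± 0.05 with Saposhnikoviae Radix, 0.06 ± 0.05 with Soyo-san and 0.02 ± 0.06 with Okbyeongpung-san. The 95% interval was inside ±0.5 for every member but CENPE in these 6 comparisons.

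Extracts of matched dose were compared in 3 pairs. Between Menthae Herba and Saposhnikoviae Radix, Saengmaek-san and Guibi-tang, and Soyo-san and Okbyeongpung-san at the high dose no member passed by edgeR, where 1.1%, 0.37% and 0% of all genes differed. The counts at an unadjusted p under 0.05 were 2, 1 and 0, and DESeq2's test gave 0 in each. MAD2L1 differed by 0.15 ± 0.05 between the single herbs (adjusted p = 0.228, 95% interval 0.05 to 0.25), by 0.09 ± 0.05 in the second pair (interval -0.02 to 0.19) and by 0.04 ± 0.06 in the third (interval -0.07 to 0.14). In the pair of later-numbered formulas BIRC5 differed by 0.04 ± 0.04 (interval -0.04 to 0.11) and CENPA by -0.01 ± 0.07 (interval -0.14 to 0.13). Intervals of this width do not show equal levels. The difference between extracts in their high-minus-low effect was tested in the same 3 pairs and gave no member by edgeR or DESeq2, where 0.0763%, 0% and 0% of all genes passed. The counts at an unadjusted p under 0.05 were 2, 1 and 1.

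Soshiho-tang, with 1 later-numbered library per dose, allows values and no test. No member was past a log2 ratio of 0.5 in either direction outside the vehicle range at the high, medium or low dose, where 17.5%, 9.91% and 9.72% of all genes were. The shares in this paragraph are over all genes tested, which were not matched to the members for level. At the high dose 33 members lay above and 1 (CENPA) below the range of the 3 vehicle libraries, against 38% and 37.9% of all genes. At the medium dose 28 lay above and 3 below (34% and 32.6% of all genes), and at the low dose 22 above and 7 below (33.7% and 31.6%). The member median of the log2 ratio was 0.16, 0.12 and 0.04 from high to low. MKI67 was at 1379, 1271 and 1205 CPM against a vehicle range of 962 to 1132 CPM, and CENPF at 353, 350 and 358 CPM against 259 to 292 CPM. CENPA was at 17.9, 17.4 and 16.3 CPM against 18.9 to 20.1 CPM, and CDC25B at 180, 155 and 147 CPM against 158 to 171 CPM, so CDC25B was above vehicle at the high and below it at the other doses.

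Other genes of the same pathways were described from lists of 138 further G2/M and mitosis genes and 30 genes of G1/S and DNA replication. Of the 138, the numbers that rose and fell at the high dose were 20 and 2 with Menthae Herba, 1 and 0 with Saposhnikoviae Radix, 10 and 0 with Saengmaek-san, 6 and 0 with Guibi-tang, 32 and 0 with Soyo-san and 20 and 0 with Okbyeongpung-san. The shares of all genes that rose and fell were 4.59% and 3.98%, 0.293% and 0.205%, 2.39% and 1.89%, 1.28% and 0.974%, 8.03% and 6.43%, and 4.36% and 3.03% in the same order. With the numbering in the fit the counts were 26 and 2, 2 and 0, 15 and 1, 9 and 0, 9 and 4, and 4 and 0. The shares of all genes were then 6.39% and 5.2%, 0.645% and 0.528%, 3.67% and 2.72%, 2.12% and 1.5%, 3.92% and 3.24%, and 1.3% and 1.05%. ZWILCH, of the RZZ complex at kinetochores, was the 1 gene that rose with Saposhnikoviae Radix (0.23 ± 0.05, adjusted p = 0.00775, edgeR), and it rose with each of the other 5 extracts at the high dose, by 0.27, 0.28, 0.20, 0.23 and 0.18. With Menthae Herba high the kinetochore gene CENPN (0.28), the cohesin protector CDCA5 (0.22) and CDC25A (0.24) rose and the spindle gene PSRC1 (-0.21) fell. With Soyo-san and Okbyeongpung-san high CENPC, a base protein of the kinetochore, rose by 0.37 and 0.43 and the spindle gene TACC3 by 0.27 and 0.23.

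Of the 30 genes of G1/S and replication, 12 rose with Menthae Herba high, 0 with Saposhnikoviae Radix, 8 with Saengmaek-san, 4 with Guibi-tang, 15 with Soyo-san and 7 with Okbyeongpung-san, where 4.59%, 0.293%, 2.39%, 1.28%, 8.03% and 4.36% of all genes rose. With the numbering in the fit they were 14, 1, 12, 5, 10 and 3, where 6.39%, 0.645%, 3.67%, 2.12%, 3.92% and 1.3% of all genes rose. None fell in either fit. RRM2, the small subunit of ribonucleotide reductase, rose by 0.29 with Menthae Herba high and by 0.18, 0.16 and 0.16 with Saengmaek-san, Guibi-tang and Soyo-san high. MCM2, a subunit of the replicative helicase, rose by 0.29 with Soyo-san high (adjusted p = 2.26e-06, edgeR) and by 0.21 with Okbyeongpung-san high. CDKN1A, the CDK inhibitor p21, passed in none of the 30 comparisons. It was at 0.19 ± 0.10 with Menthae Herba high (adjusted p = 0.247, edgeR) and its smallest adjusted p was 0.0537 (-0.32 ± 0.11, Okbyeongpung-san low).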

How the data were processed

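RNA of 60 libraries had an integrity number above 7, was prepared with a directional kit and was read as pairs of 100 bp, per the labels' protocols. The authors deposited expected counts per gene, made with FastQC 0.11.9, Trim Galore 0.6.5, STAR 2.7.3a and RSEM 1.3.3 on GRCh38, as listed per the submitters' processing notes. Neither the annotation release nor the strand setting is given in the sources used here, so gene positions were taken from GENCODE 29 by identifier. Of the deposited values above 0, 27.7% were not whole, and all were rounded before testing. Symbols were matched for 56558 of 60675 identifiers.

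Genes were filtered with filterByExpr, which left 17049 holding 99.95% of counts, scaled by TMM and fitted with edgeR 4.0.16 (R 4.3.3, limma 3.58.1) over 19 groups and 57 libraries with 38 residual degrees of freedom, using quasi-likelihood tests with Benjamini-Hochberg adjustment and a threshold of 0.05. CPM values are TMM-scaled, with a prior count of 2 on the log2 scale. The SE of a log2 change was derived as its absolute value divided by the square root of the test's F statistic. The 95% intervals were built from that SE with normal quantiles. The script was tested on simulated data. The members, the lists and the term for library numbering were chosen with earlier results of these data known. For each comparison with vehicle every member that passed is named, or the 3 with the smallest p at a high dose where none passed. Beside them stands a set of readouts (MKI67, TOP2A, CCNA2, CCNB1, CDK1, PLK1, AURKA, AURKB, BUB1, CDC20, CENPF, KIF20A, FOXM1, BIRC5 and CDKN1A). Other genes named were chosen after their values were seen.

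The 57 pairs of replicate libraries differed by more than sampling noise (chi-square per degree of freedom 1.84 to 23.5). Deviations of same-numbered libraries correlated at 0.14, 0.13 and 0.29 between Saengmaek-san high and Guibi-tang high. In both groups replicates 1 and 2 were earlier and replicate 3 later in the numbering. No other comparison had all 3 correlations as high. Between Saengmaek-san high and low, which span the split too, they were 0.18, 0.04 and 0.28. Alternatives were DESeq2 1.42.0, its size factors, no filter, only the groups compared, a replicate block, the numbering term, each part of the numbering alone and each library left out.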

Additional observations from a re-analysis of the deposited data

How the results depend on the processing

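Over all alternatives, 655 counts and medians stayed close to their value and 99 moved. For the single changes, 244 values stayed past the threshold, 146 did not and 1 reversed (CCNA2 with Soyo-san high, -0.0038 with the numbering term). The cause was not tested.

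Member counts of these alternatives, here and above, mostly have no share of all genes beside them. Shares are given only for comparisons with vehicle under the numbering term and in the earlier libraries alone. The other counts show how far they depend on the setting and are not read against a background. With DESeq2's size factors 1 member passed for Saposhnikoviae Radix low. With DESeq2's test the counts were 4, 1 and 1 for Menthae Herba high, medium and low, 1 for Saposhnikoviae Radix low and 5 for Okbyeongpung-san low. With no filter they were 4 and 2 for Menthae Herba high and medium, 2 for Saengmaek-san medium, 3 for Guibi-tang medium, 5 for Okbyeongpung-san medium and low, 1 for Menthae Herba high against low, 2 for Menthae Herba against Saposhnikoviae Radix and 1 for their difference of dose effects. With only the groups compared they were 7 and 2 for Menthae Herba high and medium, 1 and 3 for Saposhnikoviae Radix high and low, 0 for Saengmaek-san high, 1 for Guibi-tang medium, 13, 14 and 3 for Soyo-san, 1 and 8 for Okbyeongpung-san medium and low, 1 for Menthae Herba high against low and 2 for the single herbs.

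With the numbering term the counts were 5 and 1 for Menthae Herba high and medium, 1 for Saposhnikoviae Radix low, 1 for Guibi-tang high, 3, 0 and 3 for Soyo-san, 0 and 1 for Okbyeongpung-san high and medium and 1 for Menthae Herba high against low. The medians were 0.059 for Saengmaek-san high, 0.014 and -0.034 for Guibi-tang medium and low, -0.0040, 0.025 and -0.061 for Soyo-san and -0.027, -0.019 and -0.065 for Okbyeongpung-san. In earlier libraries alone the counts were 9, 2 and 1 for Menthae Herba, 1, 1 and 3 for Saposhnikoviae Radix, 2 for Saengmaek-san medium, 1 for Guibi-tang high, 2 for Menthae Herba high against low and 1 for the single herbs, and the medians were 0.041 for Saengmaek-san high and 0.0082, 0.025 and -0.022 for Guibi-tang. In that fit 2.33% of all genes rose and 2.26% fell with Menthae Herba medium, and 1.22% and 1.7% with Menthae Herba low. The shares were 1.21% and 1.47% with Saengmaek-san medium and 2.14% and 1.82% with Guibi-tang high. In later libraries alone the median of Guibi-tang high against low was 0.063.

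With the replicate block the counts were 4 for Menthae Herba high, 1 for Saposhnikoviae Radix low and 5 for Okbyeongpung-san low, and no other count moved by more than 1.5 times. Outside the groups that span the split, same-numbered libraries share only a number.

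With 1 library left out, counts ran from 1 to 3 for Menthae Herba high, 0 to 10 for Saengmaek-san high, 0 to 1 for Guibi-tang low, 2 to 9, 1 to 7 and 0 to 1 for Soyo-san, 0 to 5, 0 to 4 and 1 to 3 for Okbyeongpung-san and 0 to 1 for Menthae Herba high against low. Medians ran from 0.039 to 0.14 for Saengmaek-san high, 0.0055 to 0.082 for Guibi-tang high, -0.00093 to 0.11 for Saengmaek-san high against low and -0.020 to 0.094 for Saengmaek-san against Guibi-tang.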
